A study of Mus musculus with 16 samples.

Results

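The 47 genes described here are S phase and DNA replication genes, each given a named role in or around replication. They were taken by symbol from a list of members and found 47 of 47 among the 27998 genes of each deposited matrix. The genes were chosen by symbol and role, with earlier results of these data known. They were read by role as the MCM helicase core (6 genes), origin licensing and firing (9), primase and polymerases (7), clamp and clamp loader (6), the single-strand binding protein RPA (3), flap, nick and mismatch processing (3), nucleotide supply and uracil removal (5), chromatin and histone supply (6) and the fork checkpoint (2).

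DNA is copied once per cell cycle. In G1, origins are licensed when *Cdc6* and *Cdt1* load the MCM helicase, and in S phase *Cdc45* and the GINS complex join MCM so that primase, polymerases and the PCNA clamp can follow the fork. Thymidylate synthase (*Tyms*), ribonucleotide reductase (*Rrm1*, *Rrm2*) and dUTPase (*Dut*) set the nucleotide pool, and transcription of most of these genes is known to depend on E2F factors at the G1/S transition. In marrow, most long-term stem cells rest outside the cycle, while committed erythroid and myeloid progenitors divide often.

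The study asked how chronic IL1β acts on marrow with and without *Tet2*, and sequenced RNA of single lineage-depleted bone marrow cells. All mice were C57BL/6, 6 to 12 weeks old by the labels. The WT mice were *Tet2*fl/fl and the *Tet2*-KO mice were Vav-Cre-*Tet2*-/-, which lack the gene throughout blood cells, and each genotype received 500 ng of recombinant IL1β per mouse and day by intraperitoneal injection or vehicle for 5 weeks. There were 4 mice in each of the 4 groups, and 2 mice of 1 group shared each of the 8 libraries, told apart by hashtag antibodies. Cre was carried by the knockout mice alone, so Cre and the deletion cannot be told apart. Each library held mice of 1 group alone, so no comparison could be made within a library. The 3′ counts of *Tet2* do not check the deletion.

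The libraries held 56010493 to 99197115 unique molecular identifiers (UMIs, each 1 captured transcript). Of 121405 barcodes, 94917 had at least 750 detected genes and at most 10% mitochondrial UMIs. Hashtags placed 57896 of these in 1 mouse, 3938 were classed as carrying both hashtags and 33083 could be placed in neither mouse. A barcode seen in more than 1 library belonged to 2128 of the kept cells. The number of assigned cells ran from 698 (the second WT mouse with vehicle) to 6432 per mouse, and the second *Tet2*-KO mouse with vehicle had 1259. Clusters were named from marker genes, made without the 47 genes and other cell cycle genes, and are called "-like" because no surface marker was measured. The 47 genes together gave 1839719 UMIs, 0.471% of all UMIs of assigned cells, and 1.70% of these cells held none of them.

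Replication transcripts were most abundant in erythroblast-like cells. In WT mice with vehicle, the 47 genes summed to 71.1 ± 0.919 (SD, n = 4) UMIs per 10000 UMIs in erythroblast-like cells. The 3 classes below were plasmacytoid dendritic-like (55.5 ± 4.35, n = 4), monocyte progenitor-like (53.7 ± 5.61, n = 3) and CFU-E-like cells (51.6 ± 3.02, n = 4), CFU-E being the late erythroid colony-forming progenitor. Those 3 did not differ beyond their spread. Prog-like (multipotent) cells stood at 46.99 ± 3.66 and IMP-like (immature myeloid progenitor) cells at 45.6 ± 3.32 (n = 4 each). HSC-like cells were at 41.9 ± 0.330 and granulocyte progenitor-like cells at 40.4 ± 1.25 (n = 4 each), and the range over mice of each overlapped those of MegP-like, MEP-like, dendritic-like and neutrophil-like cells. Plasma-like cells had the lowest mean, at 24.03 ± 8.28 (n = 4). Their mice ran from 19.2 to 36.4, overlapping monocyte-like (23.6 to 43.3) and NK and T cell-like mice (31.2 to 33.7) among others. These levels are per UMI sequenced, so a class with more cells in S phase and a class with more replication transcripts in each cycling cell cannot be told apart.

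**Figure D1:**
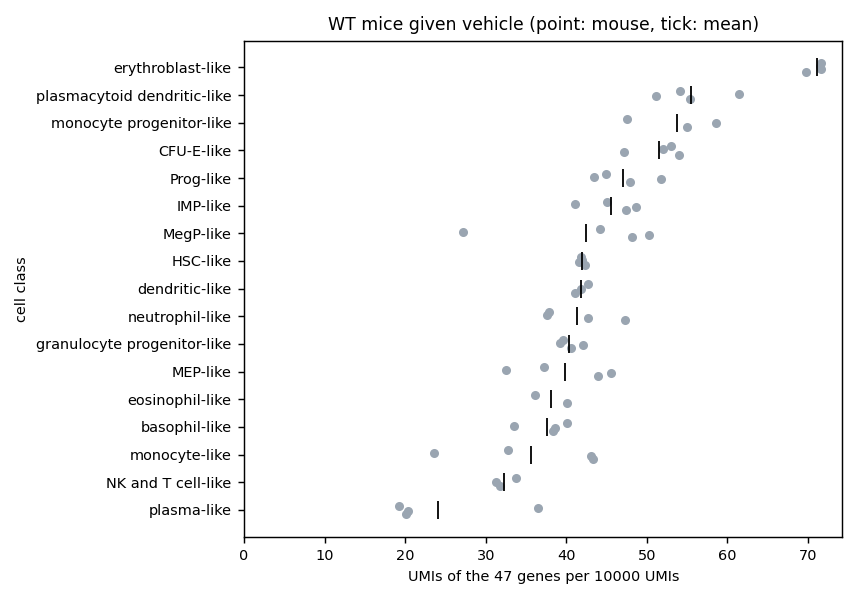
Summed level of the 47 genes (x axis, UMIs per 10000 UMIs of the class) in each WT mouse with vehicle (point) and the mean over mice (tick), for 17 classes in order of the mean (y axis). Erythroblast-like cells stand alone on the right at 69.7 to 71.7, and plasma-like cells have the lowest mean.

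The high level in erythroblast-like cells was shared by most of the set. The 5 members with the most UMIs held 26.8% of the total, and 32 of the 47 genes had their highest mean over WT mice with vehicle in erythroblast-like cells. Another 5 were highest in monocyte progenitor-like cells and 5 in plasmacytoid dendritic-like cells. The widest span was that of *Ccne1*, cyclin E1, which drives entry into S phase. It was at 2.93 CPM (UMI counts of the gene scaled to a fixed total of the class) in MEP-like (megakaryocyte-erythroid progenitor) cells and at 126 CPM in erythroblast-like cells, a ratio of 43.0. The lower value is near the floor, since *Ccne1* did not pass the filter on low counts in MEP-like cells, so this ratio is uncertain. *Hells*, a chromatin remodeller, spanned 20.8 CPM in plasma-like cells to 188 CPM in plasmacytoid dendritic-like cells. *Rrm2*, the S phase subunit of ribonucleotide reductase, went from 38.4 CPM in HSC-like cells to 261 CPM in erythroblast-like cells. The narrowest span was that of *Rpa1*, the large RPA subunit, from 46.3 CPM in granulocyte progenitor-like cells to 106 CPM in erythroblast-like cells.

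The question of the first comparison was what 5 weeks of IL1β did to these genes in 7 chosen classes, erythroblast-like cells not among them. The members did not move in 1 direction, and their median log2 fold change lay between -0.16 and 0.08 over 7 classes and both genotypes. Of the 14 tests this gives, those that called a member lower were most frequent for *Dut* (12), *Gins2* (11), *Tyms* (10), *Rfc4* and *Ung* (7 each), *Tipin* (6), *Prim1* (5) and *Pole2* (5 of the 12 in which it passed the filter). Those that called a member higher were most frequent for *Cdt1* (6) and *Rrm1* (4), then *Mcm10*, *Mcm6* and *Mcm7* (2 each). Mice were the replicates of each comparison. The test was edgeR's quasi-likelihood test, p-values were adjusted by Benjamini-Hochberg over all genes of the class, and a gene was called at an adjusted p under 0.05. Most calls given below with values were picked among those whose mice do not overlap between groups. The absence of overlap beside them follows from that choice. Without regard to calls, 1 of 47 members was higher and 13 lower without overlap in granulocyte progenitor-like cells of WT mice. Of 10462 genes, 1295 and 1554 were. In *Tet2*-KO mice 5 members were higher and 10 lower, against 1895 and 1951 genes.

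Granulocyte progenitor-like cells of WT mice had 4 of the 47 members called higher with IL1β and 13 lower, where 13.3% of all tested genes were called higher and 15.6% lower. In *Tet2*-KO mice 2 members were called higher and 15 lower, against 19.1% and 19.8% of all genes. The 17 members called in either direction in each genotype stood against 28.9% of all genes in WT and 38.9% in *Tet2*-KO, and the lower calls exceeded the share of all genes while the higher calls did not. These fits count the 2 mice of a library as separate samples. With each library as 1 replicate, 2 per group and with the cells placed in neither mouse added back, the 17 calls became 3 in WT and 7 in *Tet2*-KO, and over all classes 32 of 50 named calls passed. The median log2 fold change of the members was -0.10 in WT and -0.08 in *Tet2*-KO, and that of all genes was 0.04 and 0.03.

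In IMP-like cells 2 members were called higher and 10 lower in WT (all genes, 9.17% and 12.1%), and 1 higher and 10 lower in *Tet2*-KO (12.7% and 15.1%). Prog-like cells had 2 higher and 9 lower in WT (7.57% and 8.39%), and 0 higher and 11 lower in *Tet2*-KO (9.61% and 11.5%). These 11 calls in each genotype were 4 without the third WT mouse with IL1β and 5 without the fourth *Tet2*-KO mouse with vehicle or the first with IL1β, 5 and 7 with each library as 1 replicate, and 19 in *Tet2*-KO with joint clustering. The Prog-like class is made of 2 clusters, and the one led by *Dntt*, a gene of lymphoid priming, shrank with IL1β from 537 of 1340 to 145 of 1306 cells in WT and from 555 of 1683 to 132 of 1035 cells in *Tet2*-KO. Its part in the result was not tested beyond the fit without that cluster, which left the median of the members in *Tet2*-KO at -0.26 in place of -0.16.

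CFU-E-like cells divided evenly in WT, with 5 members called higher and 5 lower (all genes, 8.1% and 10.3%), and had 2 higher and 6 lower in *Tet2*-KO (6.71% and 9.81%). In HSC-like cells 0 of 46 tested members were called higher and 2 lower in WT (3.89% and 4.76%), and 0 higher and 4 lower in *Tet2*-KO (8.1% and 10.3%). Basophil-like cells had 0 higher and 1 lower in WT (1.61% and 4.05%), and 0 higher and 4 lower in *Tet2*-KO (2.38% and 5.32%). In MEP-like cells 0 of 45 members were called higher and 2 lower in WT (0.973% and 2.53%), and 0 in either direction in *Tet2*-KO (0.627% and 2.2%). In *Tet2*-KO 5 had an unadjusted p under 0.05 in edgeR, or 11.1% against 17.6% of all genes, and DESeq2 also called 0.

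Over these 7 classes and both genotypes, 14 tests in all, 22 members were called lower at least once, 7 higher at least once, 18 never and 0 in both directions. Among the genes tested in all 14, 20 of 45 members were called lower at least once, against 32.5% of all genes, and 7 of 45 were called higher, against 35.3%. The tests are not independent, since the classes come from the same mice and libraries. The WT and *Tet2*-KO comparisons share no mouse, but the spread of each gene was estimated over all 4 groups, so they are not independent either. The same sign in both genotypes was held by 43 of 47 members in granulocyte progenitor-like cells, against 81.7% of all genes, and in CFU-E-like cells 45 of 47, against 78.1%. Agreement was lower in HSC-like cells (33 of 46, against 73.9% of all genes) and in MEP-like cells (27 of 45, against 68.7%). In both genotypes 10 members fell in granulocyte progenitor-like cells (*Dut*, *Fen1*, *Gins1*, *Gins2*, *Pold3*, *Rfc3*, *Rfc4*, *Tipin*, *Tyms*, *Ung*), where 12.9% of all genes did. The members that fell in both were 8 in IMP-like (all genes, 9.93%), 5 in Prog-like (5.96%), 4 in CFU-E-like (*Dut*, *Gins2*, *Pole2*, *Tyms*; 7.17%), 2 in HSC-like (*Gins2*, *Ung*; 3.7%), 1 in basophil-like (*Dut*; 2.03%) and 0 in MEP-like cells (1.19%).

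**Figure D2:**
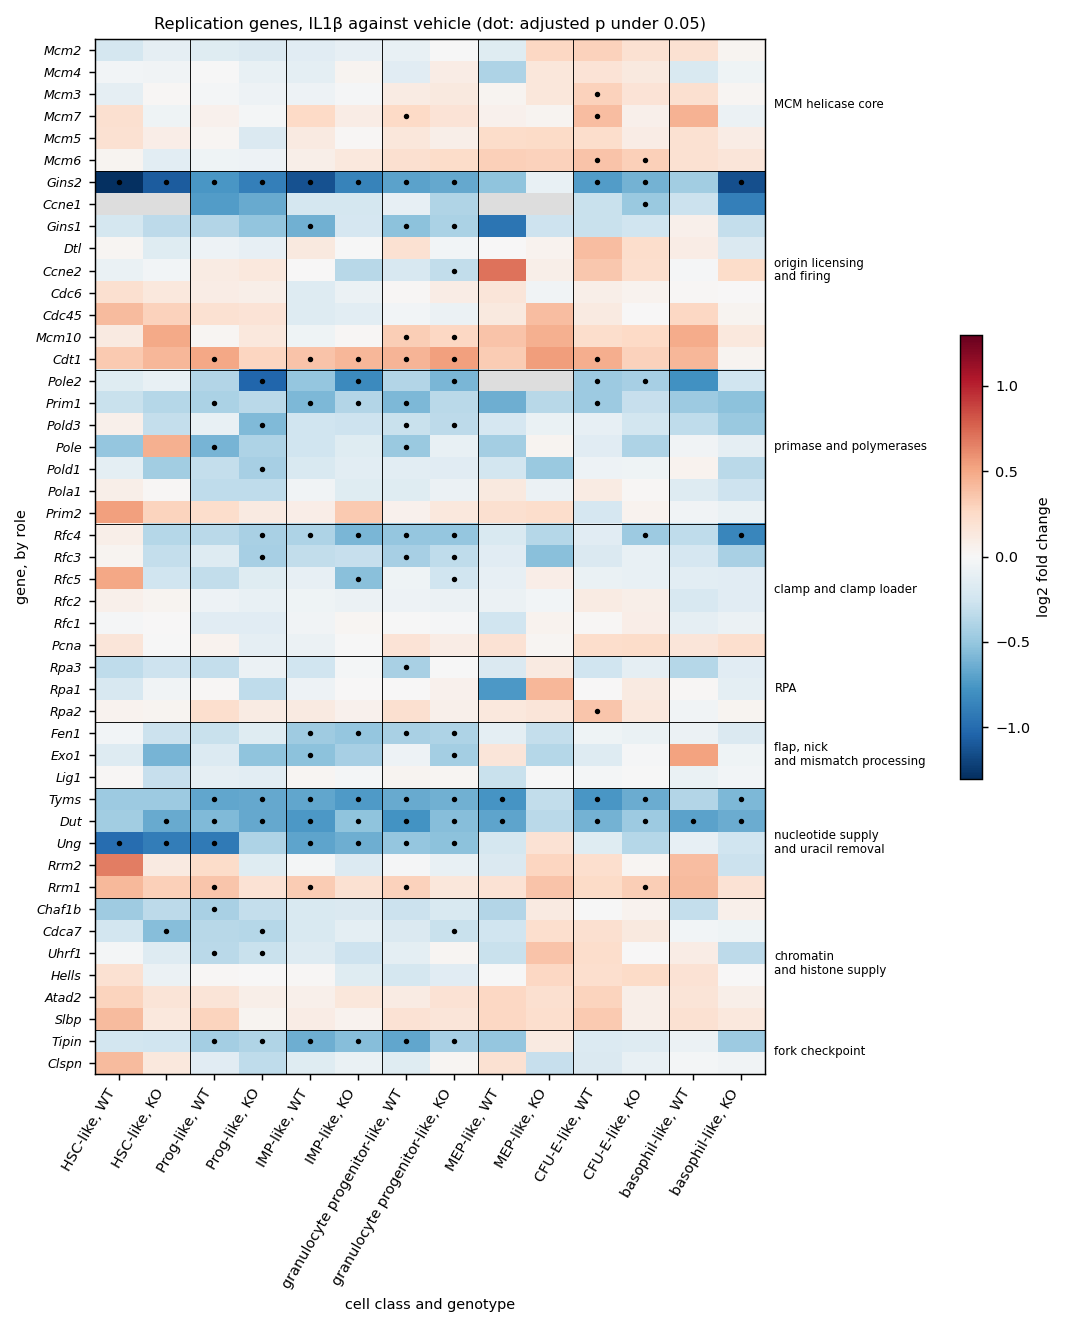
Log2 fold change of IL1β against vehicle (colour) for the 47 genes (rows, by role) in 7 classes of each genotype (columns), with a dot where edgeR's adjusted p was under 0.05 and grey where a gene did not pass the filter on low counts. *Dut*, *Tyms* and *Gins2* are negative in all 14 columns and *Cdt1* and *Rrm1* positive in all 14.

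*Dut* (ENSMUSG00000027203, chr2:125247190-125258608 of GRCm38, plus strand) encodes dUTPase, which keeps uracil out of DNA by removing dUTP and yields the precursor of thymidine nucleotides. It was the member most often changed, negative in 14 of 14 tests and called lower in 12, with log2 fold changes from -0.78 to -0.35. Levels in granulocyte progenitor-like cells were 508, 485, 470 and 466 CPM in the 4 WT mice with vehicle and 353, 307, 256 and 204 CPM with IL1β, a log2 fold change of -0.78 (SE 0.128, adjusted p = 0.000232). No WT mouse with IL1β reached the vehicle mice. The *Tet2*-KO mice went from 415, 413, 455 and 482 CPM to 263, 264, 332 and 342 CPM, again with no overlap (log2 fold change -0.55, SE 0.126, adjusted p = 0.00179).

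The same was seen for *Dut* in CFU-E-like cells of both genotypes and in IMP-like cells of WT mice. In CFU-E-like cells, WT mice had 882, 874, 699 and 781 CPM with vehicle and 548, 518, 521 and 526 CPM with IL1β (log2 fold change -0.61, SE 0.106, adjusted p = 0.000429). *Tet2*-KO mice had 667, 652, 819 and 835 CPM and then 405, 554, 600 and 565 CPM (-0.47, SE 0.106, adjusted p = 0.00418). In IMP-like cells of WT mice it fell from 464, 442, 421 and 433 CPM to 292, 277, 242 and 230 CPM (-0.75, SE 0.111, adjusted p = 5.58e-05). None of these groups overlapped.

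*Dut* had the same sign in the remaining tested classes. In Prog-like cells of *Tet2*-KO mice it fell from 338, 432, 355 and 423 CPM to 211, 248, 223 and 292 CPM (-0.66, SE 0.114, adjusted p = 0.000339). MEP-like cells of WT mice went from 401, 311, 331 and 354 CPM to 271, 195, 189 and 219 CPM (-0.68, SE 0.160, adjusted p = 0.0131). In *Tet2*-KO the MEP-like difference was -0.35 (adjusted p = 0.26), from 3 mice with vehicle because the second mouse had under 10 such cells. Basophil-like cells of WT mice went from 453, 494, 401 and 348 CPM to 261, 223, 269 and 268 CPM (-0.70, SE 0.180, adjusted p = 0.0221), a call that was lost without any of 4 single mice.

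*Tyms* (ENSMUSG00000025747, chr5:30058202-30073617, minus strand), thymidylate synthase, makes dTMP from dUMP, the product of dUTPase. It was negative in 14 of 14 tests and called lower in 10, from -0.76 to -0.32. In CFU-E-like cells it stood at 146, 109, 97.98 and 105 CPM in WT mice with vehicle and at 71.4, 65.7, 68.0 and 74.4 CPM with IL1β (log2 fold change -0.75, SE 0.127, adjusted p = 0.000305). In *Tet2*-KO mice it went from 114, 89.2, 130 and 143 CPM to 71.0, 75.6, 79.6 and 85.4 CPM (-0.64, SE 0.121, adjusted p = 0.00127). The groups were apart in both genotypes. It has a named pseudogene, *Tyms-ps*, between which and the gene the counting could split reads, so its values are uncertain to that extent.

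*Tyms* in granulocyte progenitor-like cells was at 118, 114, 112 and 122 CPM in WT mice with vehicle and at 87.4, 66.6, 80.0 and 58.6 CPM with IL1β (log2 fold change -0.65, SE 0.150, adjusted p = 0.00311). In *Tet2*-KO it was at 97.9, 102, 155 and 138 CPM and at 70.4, 64.9, 89.4 and 92.1 CPM (-0.63, SE 0.142, adjusted p = 0.00173). No mouse overlapped in either genotype. Prog-like cells of WT mice fell from between 133 and 139 CPM to between 71.1 and 92.9 CPM (-0.68, SE 0.147, adjusted p = 0.0031). IMP-like cells fell in WT by 0.68 on the log2 scale (SE 0.166, adjusted p = 0.00502) and in *Tet2*-KO by 0.74 (SE 0.153, adjusted p = 0.00103).

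*Ung*, the uracil DNA glycosylase that removes uracil from DNA, was called lower in 7 of 14 tests. In Prog-like cells of WT mice it went from 61.8, 44.2, 51.9 and 50.8 CPM to 29.6, 23.997, 29.8 and 26.9 CPM (log2 fold change -0.92, SE 0.213, adjusted p = 0.00479). In *Tet2*-KO Prog-like cells the groups overlapped (-0.40, adjusted p = 0.169). In IMP-like cells of *Tet2*-KO mice it fell from 41.0, 36.9, 55.7 and 52.8 CPM to 30.5, 28.7, 35.2 and 27.7 CPM (-0.64, SE 0.158, adjusted p = 0.00418).

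Neither ribonucleotide reductase subunit was called lower. *Rrm1* (ENSMUSG00000030978, chr7:102441695-102469771, plus strand), the large subunit, was positive in 14 of 14 tests and called higher in 4, with log2 fold changes from 0.15 to 0.42. In IMP-like cells of WT mice it rose from 185, 197, 181 and 190 CPM to 232, 231, 230 and 248 CPM (0.33, SE 0.085, adjusted p = 0.00743), with no overlap. In *Tet2*-KO the change was 0.20 (adjusted p = 0.0649). Granulocyte progenitor-like cells of WT mice rose from 143, 135, 150 and 160 CPM to 192, 184, 186 and 163 CPM (0.30, SE 0.0918, adjusted p = 0.0197), and those of *Tet2*-KO mice did not pass (0.15, adjusted p = 0.207). *Rrm2*, the small subunit, was called in 0 of 14 tests by edgeR, from -0.28 to 0.67.

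**Figure D3:**
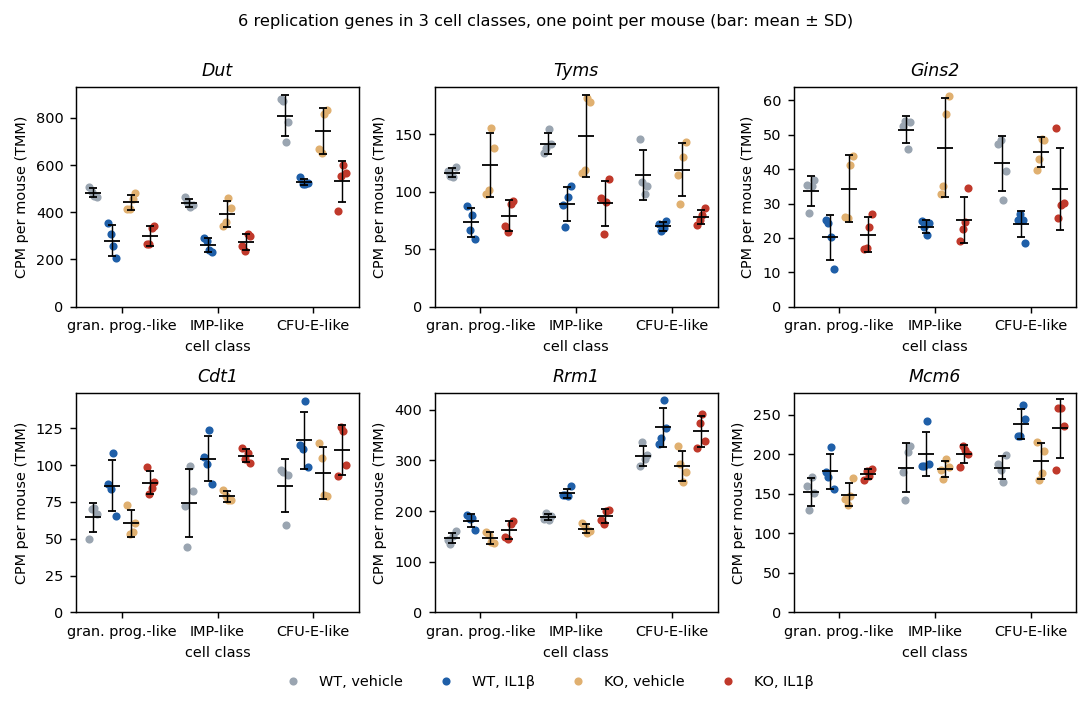
TMM-scaled CPM (y axis, from 0) of 6 members in each mouse (point), by group (colour), in granulocyte progenitor-like, IMP-like and CFU-E-like cells (x axis), with the mean ± SD over 4 mice as a bar. In granulocyte progenitor-like cells *Dut* lies between 204 and 353 CPM in WT mice with IL1β and between 466 and 508 CPM in those with vehicle, while *Cdt1* and *Rrm1* lie higher on average with IL1β.

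*Gins2* (ENSMUSG00000031821, chr8:120578633-120589304, minus strand), a subunit of the GINS complex that activates MCM at origins, was negative in 14 of 14 tests and called lower in 11, from -1.30 to -0.10. In IMP-like cells it was at 52.5, 54.1, 45.9 and 53.7 CPM in WT mice with vehicle and at 24.8, 23.2, 20.8 and 24.4 CPM with IL1β (log2 fold change -1.13, SE 0.204, adjusted p = 0.000394). The *Tet2*-KO mice went from 32.9, 35.02, 56.0 and 61.3 CPM to 19.1, 22.6, 24.5 and 34.5 CPM (-0.87, SE 0.180, adjusted p = 0.00102). The WT groups were apart and the *Tet2*-KO groups overlapped, since the fourth mouse with IL1β lay above the first with vehicle.

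In CFU-E-like cells of WT mice *Gins2* fell from 47.4, 48.6, 31.1 and 39.6 CPM to 25.3, 27.1, 25.3 and 18.6 CPM (log2 fold change -0.72, SE 0.153, adjusted p = 0.00204). Prog-like cells of *Tet2*-KO mice fell from 30.4, 40.0, 36.5 and 45.7 CPM to 18.9, 16.2, 21.1 and 26.5 CPM (-0.89, SE 0.181, adjusted p = 0.00136). The groups did not overlap in either. The fall in granulocyte progenitor-like cells of WT mice was from 35.3, 27.3, 35.2 and 36.8 CPM to 25.1, 24.4, 20.3 and 10.9 CPM (-0.69, SE 0.213, adjusted p = 0.0185). *Gins1*, another GINS subunit, was called lower in 3 tests.

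*Cdt1* (ENSMUSG00000006585, chr8:122568015-122573554, plus strand), which loads MCM on origins and is degraded once S phase starts, moved the other way. It was positive in 14 of 14 tests and called higher in 6, from 0.03 to 0.54. Granulocyte progenitor-like cells of *Tet2*-KO mice rose from 73.2, 53.1, 54.8 and 60.4 CPM to 98.3, 80.1, 84.3 and 88.7 CPM (log2 fold change 0.53, SE 0.131, adjusted p = 0.00308), with no overlap. In WT mice it went from 50.1, 70.02, 71.0 and 66.7 CPM to 87.1, 83.6, 108 and 65.6 CPM (0.44, SE 0.139, adjusted p = 0.0205), where the fourth mouse with IL1β lay within the vehicle mice. IMP-like cells of *Tet2*-KO mice rose from 83.4, 79.2, 76.0 and 76.1 CPM to 112, 104, 108 and 102 CPM (0.43, SE 0.118, adjusted p = 0.00793).

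Among the other licensing and firing genes, *Mcm10*, a fork scaffold, was called higher in granulocyte progenitor-like cells of both genotypes. In *Tet2*-KO mice it went from 34.0, 32.3, 30.7 and 27.4 CPM to 34.9, 35.8, 37.1 and 42.9 CPM (log2 fold change 0.27, SE 0.105, adjusted p = 0.0443), a call that was lost in 8 of 10 alternatives and without any of 8 single mice. *Dtl*, the adaptor that marks *Cdt1* protein for degradation, has the most UMIs of this role and was called in 0 of 14 tests by edgeR. *Dtl* in granulocyte progenitor-like cells differed by 0.20 in WT (adjusted p = 0.322) and by -0.03 in *Tet2*-KO (adjusted p = 0.881).

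Of the 6 MCM core genes, *Mcm6* and *Mcm7* were called higher in 2 of 14 tests each and *Mcm3* in 1, while *Mcm2*, *Mcm4* and *Mcm5* were called in 0 by edgeR, and none was called lower. *Mcm6* in CFU-E-like cells rose in WT from 188, 181, 165 and 199 CPM to 223, 224, 263 and 245 CPM (log2 fold change 0.37, SE 0.102, adjusted p = 0.013). In *Tet2*-KO it went from 216, 168, 177 and 205 CPM to 180, 259, 258 and 236 CPM (0.31, adjusted p = 0.0369), where the first mouse with IL1β lay among the vehicle mice. *Mcm7*, the member of this role with the most UMIs, rose in CFU-E-like cells of WT mice from 263, 223, 225 and 250 CPM to 289, 294, 354 and 353 CPM (0.40, SE 0.120, adjusted p = 0.0213). *Mcm7* differed by 0.07 in *Tet2*-KO (adjusted p = 0.736). In those WT cells 3 of the 6 MCM genes were called higher, where 8.1% of all genes were, and all 6 were positive, as were 54.6% of all genes. Their median was 0.30, but leaving out the third WT mouse with IL1β took the higher calls among all 47 members in that comparison from 5 to 0.

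Of the polymerase subunits, *Pole2*, the accessory subunit of the leading-strand polymerase ε, was called lower in 5 of the 12 tests in which it passed the filter. In Prog-like cells of *Tet2*-KO mice it fell from 23.1, 22.7, 20.4 and 19.6 CPM to 5.68, 11.2, 11.5 and 11.2 CPM (log2 fold change -1.03, SE 0.205, adjusted p = 0.00118). In WT mice it went from 18.0, 8.30, 18.4 and 18.2 CPM to 12.4, 12.4, 12.6 and 20.6 CPM and did not pass (-0.38, adjusted p = 0.236). IMP-like cells of *Tet2*-KO mice fell from 20.0, 17.8, 23.2 and 17.1 CPM to 9.56, 12.5, 12.0 and 10.1 CPM (-0.83, SE 0.166, adjusted p = 0.000738), and granulocyte progenitor-like cells by 0.60 on the log2 scale (SE 0.177, adjusted p = 0.0108).

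*Pole*, the catalytic subunit of polymerase ε, fell in Prog-like cells of WT mice from 29.1, 36.0, 33.0 and 36.0 CPM to 22.8, 26.7, 18.5 and 19.01 CPM (log2 fold change -0.60, SE 0.157, adjusted p = 0.011). *Pold3*, a subunit of the lagging-strand polymerase δ, fell in Prog-like cells of *Tet2*-KO mice from 67.0, 49.3, 74.3 and 66.1 CPM to 42.6, 47.4, 39.0 and 46.3 CPM (-0.57, SE 0.127, adjusted p = 0.00252), and differed by -0.10 in WT (adjusted p = 0.684). *Prim1*, the catalytic primase subunit, was negative in 14 of 14 tests and called lower in 5. In CFU-E-like cells of WT mice *Prim1* fell from 78.3, 54.4, 56.2 and 72.9 CPM to 49.4, 49.5, 52.5 and 40.9 CPM (-0.47, SE 0.135, adjusted p = 0.0166). *Pola1*, which makes the first DNA of each primer, was called in 0 of 14 tests by edgeR and in granulocyte progenitor-like cells differed by -0.16 in WT (adjusted p = 0.333) and by -0.07 in *Tet2*-KO (adjusted p = 0.642).

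Calls differed among the 5 measured genes of the clamp loader, which opens PCNA and places it on DNA. *Rfc4* was called lower in 7 of 14 tests, *Rfc3* in 3 and *Rfc5* in 2, and *Rfc1* and *Rfc2* were called in 0 by edgeR (median log2 fold changes -0.01 and -0.07). In IMP-like cells of *Tet2*-KO mice *Rfc4* fell from 90.8, 94.6, 114 and 102 CPM to 71.7, 58.9, 65.9 and 70.4 CPM (log2 fold change -0.60, SE 0.103, adjusted p = 0.000196). Granulocyte progenitor-like cells of *Tet2*-KO mice fell from 83.6, 81.0, 97.2 and 103 CPM to 58.6, 56.3, 69.98 and 71.1 CPM (-0.50, SE 0.108, adjusted p = 0.00114). In CFU-E-like cells it fell in *Tet2*-KO from 134, 146, 154 and 157 CPM to 78.1, 106, 126 and 100 CPM (-0.47, SE 0.115, adjusted p = 0.00723) and differed by -0.15 in WT (adjusted p = 0.433). None of the 3 pairs of *Tet2*-KO groups overlapped.

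Basophil-like cells of *Tet2*-KO mice gave the lowest value for *Rfc4*, from 68.2, 97.3, 69.2 and 77.8 CPM to 40.4, 37.3, 44.0 and 44.2 CPM (log2 fold change -0.85, SE 0.152, adjusted p = 0.00355). *Pcna*, the sliding clamp, was called in 0 of 14 tests by edgeR. *Pcna* in granulocyte progenitor-like cells stood at 126, 102, 150 and 134 CPM in WT mice with vehicle and at 149, 141, 170 and 127 CPM with IL1β (0.18, adjusted p = 0.205), and differed by 0.10 in *Tet2*-KO (adjusted p = 0.452). The named pseudogenes *Pcna-ps1* and *Pcna-ps2* could share its reads.

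RPA coats single-stranded DNA at the fork. *Rpa2* rose in CFU-E-like cells of WT mice from 108, 103, 95.6 and 101 CPM to 116, 138, 149 and 115 CPM (log2 fold change 0.36, SE 0.101, adjusted p = 0.0143), and differed by 0.14 in *Tet2*-KO (adjusted p = 0.367). *Rpa3*, the small subunit, fell in granulocyte progenitor-like cells of WT mice from 124, 125, 132 and 130 CPM to 106, 107, 88.8 and 75.2 CPM (-0.43, adjusted p = 0.0113). In *Tet2*-KO it differed by -0.01 (adjusted p = 0.967), and the difference between genotypes had an unadjusted p of 0.0196 and an adjusted p of 0.971 in edgeR's interaction test, so it did not pass.

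At the lagging strand, *Fen1*, which trims Okazaki fragment flaps, was negative in 14 of 14 tests and called lower in 4. In granulocyte progenitor-like cells it went from 84.3, 73.6, 73.9 and 70.1 CPM to 65.9, 58.2, 46.1 and 53.8 CPM in WT (log2 fold change -0.42, SE 0.125, adjusted p = 0.015). In *Tet2*-KO it went from 68.0, 62.7, 72.6 and 78.5 CPM to 45.0, 46.0, 59.3 and 61.4 CPM (-0.40, SE 0.117, adjusted p = 0.0102). *Lig1*, the ligase that seals the fragments, was called in 0 of 14 tests by edgeR and in the same cells differed by 0.04 in WT (adjusted p = 0.862) and 0.02 in *Tet2*-KO (adjusted p = 0.917).

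*Tipin*, part of the fork protection complex with Timeless, was called lower in 6 of 14 tests. In granulocyte progenitor-like cells it fell in WT from 146, 117, 109 and 128 CPM to 87.3, 74.1, 81.9 and 67.4 CPM (log2 fold change -0.67, SE 0.109, adjusted p = 0.000213). In *Tet2*-KO it fell from 94.9, 116, 110 and 124 CPM to 75.4, 75.7, 87.9 and 88.4 CPM (-0.43, adjusted p = 0.0028). Both genotypes were without overlap. In IMP-like cells of WT mice it fell from 133, 103, 128 and 132 CPM to 93.6, 71.9, 93.7 and 61.5 CPM (-0.63, SE 0.123, adjusted p = 0.000776). *Clspn*, the other checkpoint member, was called in 0 of 14 tests by edgeR.

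In the chromatin and histone group *Cdca7*, *Uhrf1* and *Chaf1b* were called lower in 3, 2 and 1 of 14 tests. *Atad2*, *Hells* and *Slbp* were called in 0. *Cdca7*, which recruits the remodeller encoded by *Hells*, was called lower in 3 tests, all in *Tet2*-KO mice. In HSC-like cells *Cdca7* fell in *Tet2*-KO from 168, 201, 166 and 155 CPM to 102, 134, 95.01 and 121 CPM (log2 fold change -0.55, SE 0.133, adjusted p = 0.00474). *Slbp*, which binds histone mRNA ends, was positive in 14 of 14 tests and called in 0 by edgeR. In granulocyte progenitor-like cells *Slbp* went from 123, 107, 114 and 107 CPM to 128, 126, 142 and 115 CPM in WT (0.18, adjusted p = 0.113), and differed by 0.16 in *Tet2*-KO (adjusted p = 0.138).

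HSC-like cells numbered 28 to 505 per mouse and had few calls, and the part of cell number in this was not tested. The 2 of 46 members called lower in WT and the 4 of 46 in *Tet2*-KO were no larger a share than the 4.76% and 10.3% of all genes. *Dut* fell in *Tet2*-KO from 248, 352, 254 and 344 CPM to 176, 189, 164 and 215 CPM (log2 fold change -0.66, SE 0.144, adjusted p = 0.00231), and in WT differed by -0.45 (adjusted p = 0.0656). *Ung* fell in *Tet2*-KO from 47.9, 66.9, 36.7 and 47.1 CPM to 24.05, 27.5, 15.2 and 30.5 CPM (-0.90, SE 0.225, adjusted p = 0.00601). *Gins2* fell in WT from 44.9, 26.9, 31.2 and 23.3 CPM to 12.7, 15.8, 12.0 and 5.91 CPM (-1.30, SE 0.383, adjusted p = 0.0322). All 3 were without overlap, which the rule for naming a call required. Without regard to calls, 3 of 46 members in WT and 4 in *Tet2*-KO were lower without overlap. Of 9120 genes, 616 and 1034 were. With classes from a joint clustering of all 4 groups, the calls of *Dut*, *Ung* and *Cdca7* in *Tet2*-KO and of *Gins2* in WT were lost, and *Gins2* in WT also lost its call in DESeq2 and without any of 5 single mice.

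Lists of other cell cycle genes were also read in HSC-like cells, and no test compared them with the members. Of 52 G2M genes, 10 were called higher and 0 lower in WT (median log2 fold change 0.51), and 21 higher and 1 lower in *Tet2*-KO (median 0.57), where 3.89% and 8.1% of all genes were called higher. The 46 tested replication members had medians of 0.02 and -0.09 in the same contrasts. The G2M list summed to 63.0 to 75.1 UMIs per 10000 in WT mice with vehicle and to 94.0 to 105.3 with IL1β. In *Tet2*-KO mice its treatments overlapped, at 37.7 to 78.1 and 58.3 to 95.8. *Top2a*, the topoisomerase that untangles sister chromatids, rose by 0.70 in WT (adjusted p = 0.0289) and by 0.71 in *Tet2*-KO (adjusted p = 0.0127). Of the 9 tested genes of CDK inhibition and growth arrest 4 were called higher in WT and 5 in *Tet2*-KO. *Cdkn1a*, the p21 inhibitor, rose by 2.11 in WT (SE 0.378, adjusted p = 0.000964) and by 1.51 in *Tet2*-KO (SE 0.294, adjusted p = 0.00102). Of 15 tested dissociation and stress genes 4 rose in WT and 3 in *Tet2*-KO, *Junb* among them in both. The list summed to 45.1 to 77.1 UMIs per 10000 in WT mice with vehicle and to 82.8 to 109.5 with IL1β, and in *Tet2*-KO mice the treatments overlapped (63.0 to 165.0 and 101.4 to 153.9). Their part in these values was not tested.

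With mice as replicates, granulocyte progenitor-like cells had the most members called, 17 in each genotype, and the related lists were read there. This order did not hold in WT with each library as 1 replicate. Of 46 other replication genes 5 were called higher and 10 lower in WT and 5 higher and 9 lower in *Tet2*-KO. In the same class 13.3% of all genes were called higher and 15.6% lower in WT, and 19.1% and 19.8% in *Tet2*-KO, and the counts of this list and of the lists that follow stand beside those shares. *Pold2*, a polymerase δ subunit, fell by 0.65 in WT and by 0.83 in *Tet2*-KO on the log2 scale, and *Orc6*, of the origin recognition complex, by 0.52 and 0.50. *Orc5* of the same complex rose by 0.57 and 0.54, and *Dna2*, a flap nuclease, by 0.39 in both. Thus the origin recognition complex also held members called in either direction.

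Of 19 E2F and pocket protein genes 3 were called higher and 0 lower in WT, and 6 higher and 2 lower in *Tet2*-KO. *E2f2*, an activator, rose by 0.83 in WT, and *Rbl2*, the p130 pocket protein of resting cells, by 0.61 in WT and 0.63 in *Tet2*-KO. In *Tet2*-KO *E2f6*, a repressor, fell by 0.73. The 52 G2M genes gave 14 higher and 6 lower calls in WT and 14 and 10 in *Tet2*-KO, with *Psrc1* at 0.80 and *Tubb4b* at -0.55 in WT. Of 9 tested growth arrest genes, 3 rose in WT and 2 rose and 1 fell in *Tet2*-KO. *Ccng2*, cyclin G2, rose by 1.54 in WT and 1.56 in *Tet2*-KO, and *Cdkn1b*, the p27 inhibitor, by 0.83 and 0.53. Of 15 stress genes, 3 rose and 2 fell in WT and 1 rose and 2 fell in *Tet2*-KO.

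Other measures moved with IL1β in the same cells. The median mitochondrial share per mouse in granulocyte progenitor-like cells was 3.38 to 4.62% with vehicle and 5.00 to 5.69% with IL1β in WT, and 3.22 to 4.12% and 4.59 to 5.78% in *Tet2*-KO, without overlap. It was also higher without overlap in the other 6 classes of both genotypes, except basophil-like cells of *Tet2*-KO mice, for example at 4.34 to 4.59% and 5.59 to 5.85% in CFU-E-like cells of WT mice. When all genes were divided into 5 equal groups by their longest annotated transcript, the shortest group had medians of -0.28 in WT and -0.25 in *Tet2*-KO on the log2 scale, and the longest group 0.17 and 0.20. The 7 members of the shortest group had medians of -0.43 and -0.41 and the 6 of the longest group -0.12 and -0.08, and in CFU-E-like cells of *Tet2*-KO mice the members of the shortest group had a median of -0.17 where all genes of that group had -0.23. Members called lower in granulocyte progenitor-like cells had a median length of 2726 bases in both genotypes, those called higher 3914.5 in WT and 3781.5 in *Tet2*-KO, and those not called 3495 in both. The order differed elsewhere, with medians of 3128 for lower and 2962 for higher calls in CFU-E-like cells of WT mice and of 2736 and 2696 in IMP-like cells of *Tet2*-KO mice. Neutrophil markers overlapped between treatments in WT, at 29.3 to 48.6 with vehicle and 23.0 to 43.0 UMIs per 10000 with IL1β. Erythroblast markers were lower with IL1β without overlap in *Tet2*-KO mice, at 0.482 to 1.09 with vehicle and 0.228 to 0.475 UMIs per 10000 with IL1β, and likewise in Prog-, IMP-, MEP- and CFU-E-like cells of *Tet2*-KO mice. The part of mitochondrial share, erythroblast markers and transcript length in the calls was not tested.

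The promoters of the members were compared by direction because members that rose and members that fell share a pathway. RefSeq gave 42 windows, from 250 bases before to 50 after a start site (GRCm38.p6), for 37 of the 47 genes, and the start of the gene as annotated lies outside every window of 6 of them (*Cdc6*, *Dut*, *Lig1*, *Mcm5*, *Mcm7*, *Rpa1*). No window was held for *Atad2*, *Ccne2*, *Exo1*, *Gins1*, *Gins2*, *Mcm4*, *Pole*, *Prim2*, *Rfc2* and *Tipin*. The E2F-type motif TTTNGCGC, on either strand, was in the windows of 12 of 37 members (32.4%, Wilson 95% interval 19.6 to 48.5%) and of 424 of 27025 genes (1.57%). The shorter motif GGCGGGA, on either strand, was in 18 of 37 (48.6%) and in 12.7% of all genes. TTTNGCGC was in 4 of 7 members called higher at least once (*Cdt1*, *Mcm3*, *Mcm6*, *Mcm7*), in 3 of 16 called lower (*Pole2*, *Rfc3*, *Uhrf1*) and in 5 of 14 never called. GGCGGGA was in 2 of 7, 10 of 16 and 6 of 14. These counts are small and are given as a description, and a match is not a binding site.

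The windows of 4 members show the range, with *Cdt1* and *Mcm6* called higher, *Pole2* called lower and holding both motifs, and *Dut* called lower and holding GGCGGGA alone. The *Dut* window surrounds a start site inside the gene, and the sequence before the annotated start of *Dut* was not searched. Capitals mark TTTNGCGC or GGCGGGA on either strand, and matches to the first on opposite strands may overlap. Sequences are RefSeq's on GRCm38.p6, written 5′ to 3′ on the strand of the gene.
Cdt1 (chr8:122567765-122568064, plus strand): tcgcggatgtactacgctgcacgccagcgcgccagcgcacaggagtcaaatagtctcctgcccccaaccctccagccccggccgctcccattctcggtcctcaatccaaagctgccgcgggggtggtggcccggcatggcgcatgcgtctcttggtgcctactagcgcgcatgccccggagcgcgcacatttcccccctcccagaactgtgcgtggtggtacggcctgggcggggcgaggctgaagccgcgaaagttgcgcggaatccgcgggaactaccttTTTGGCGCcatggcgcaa
Mcm6 (chr1:128359656-128359955, minus strand): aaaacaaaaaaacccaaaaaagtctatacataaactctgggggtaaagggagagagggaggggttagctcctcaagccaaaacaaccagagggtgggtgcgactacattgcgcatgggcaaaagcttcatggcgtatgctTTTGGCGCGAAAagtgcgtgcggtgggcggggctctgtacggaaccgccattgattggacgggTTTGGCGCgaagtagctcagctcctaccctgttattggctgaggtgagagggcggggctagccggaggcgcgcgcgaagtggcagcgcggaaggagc
Pole2 (chr12:69228141-69228440, minus strand): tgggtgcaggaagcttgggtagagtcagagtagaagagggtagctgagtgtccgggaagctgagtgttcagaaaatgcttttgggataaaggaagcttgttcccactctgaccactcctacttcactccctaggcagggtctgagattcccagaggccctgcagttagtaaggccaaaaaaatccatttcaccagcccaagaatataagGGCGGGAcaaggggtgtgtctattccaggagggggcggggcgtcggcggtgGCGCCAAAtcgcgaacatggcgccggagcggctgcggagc
Dut (chr2:125247265-125247564, plus strand): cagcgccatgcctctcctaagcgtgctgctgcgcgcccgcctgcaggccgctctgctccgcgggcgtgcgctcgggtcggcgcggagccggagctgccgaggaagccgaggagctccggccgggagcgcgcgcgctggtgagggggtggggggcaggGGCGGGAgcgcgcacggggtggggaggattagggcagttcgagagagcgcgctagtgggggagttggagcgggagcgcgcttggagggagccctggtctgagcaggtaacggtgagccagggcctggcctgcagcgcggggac

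The second comparison was between genotypes at the same treatment. Its groups are those of the IL1β comparisons, so the values stand beside them and are not separate evidence. Called members numbered 0 of 46 in HSC-like cells, both with vehicle, where 0% of all genes were called, and with IL1β, where 0.0219% were. They were 0 of 47 in Prog-like (all genes, 0.0306% with vehicle and 0.0204% with IL1β), IMP-like (0.0738% and 0.179%), granulocyte progenitor-like (0.0669% and 0.296%), CFU-E-like (0.0416% and 0.0728%) and basophil-like cells (0.0126% and 0.101%), and 0 of 45 in MEP-like cells (0% and 0.0128%), in edgeR and also in DESeq2. So few genes were called at all that a count of 0 is near the background.

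Below the threshold, the median of the members was negative in 11 of the 14 comparisons of class and treatment. In HSC-like cells with IL1β, 4 of 46 had a positive log2 fold change of *Tet2*-KO against WT (median -0.25, all genes 0.00), and 13 reached an unadjusted p under 0.05, or 28.3% against 7.49% of all genes. With vehicle the median was -0.11 (all genes 0.01), 9 of 46 were positive, and 4 reached an unadjusted p under 0.05 (8.7%, all genes 5.05%). In Prog-like cells with IL1β the median was -0.14, with 8 of 47 members at an unadjusted p under 0.05 (all genes, 6.47%), and with vehicle -0.09, with 1 (all genes, 3.66%). MEP-like cells with vehicle had a median of -0.18, with 9 of 45 positive and 5 at an unadjusted p under 0.05 (11.1%, all genes 4.7%). The remaining medians lay between -0.08 and 0.06. None of these is a call.

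Summed over the set, HSC-like cells with IL1β held 32.9 to 39.3 member UMIs per 10000 in the *Tet2*-KO mice and 39.4 to 48.6 in the WT mice, which did not overlap (log2 ratio -0.24, pooled SD 0.150). Prog-like cells with IL1β held 37.0 to 45.3 and 45.5 to 48.5 (-0.20, pooled SD 0.0956), and IMP-like cells 42.0 to 45.9 and 46.1 to 52.8 (-0.12, pooled SD 0.0794), again apart but by small gaps. These separations depended on the form of the level. Without the 5 members with the most UMIs the genotypes overlapped in all 3 classes, in HSC-like cells at 24.7 to 30.1 in *Tet2*-KO and 28.6 to 36.02 in WT, and they also overlapped in all 3 as the mean of log2(CPM + 1) over members. Other measures were apart in the same mice. In HSC-like cells with IL1β the list of other replication genes summed to 21.2 to 24.2 UMIs per 10000 in *Tet2*-KO and 26.0 to 27.1 in WT. G2M genes in IMP-like cells with IL1β summed to 70.1 to 86.7 and 88.7 to 105.1. Monocyte markers in IMP-like cells with IL1β summed to 42.2 to 47.3 UMIs per 10000 in *Tet2*-KO and 32.7 to 40.2 in WT, and the median UMIs per cell were 8641 to 12160 and 6280 to 8203. In Prog-like cells the median UMIs per cell were 6085.5 to 9572 and 4215 to 5790, and erythroblast markers summed to 0.333 to 0.785 and 0.834 to 1.04 UMIs per 10000. Their part in these levels was not tested. With vehicle the summed levels of the genotypes overlapped in all 3 classes. Between treatments, of the 7 tested classes, only CFU-E-like cells of WT mice were apart, at 47.2 to 54.03 with vehicle and 54.04 to 65.3 with IL1β. They stayed apart without the 5 members with the most UMIs (31.9 to 36.98 and 37.6 to 45.6) and overlapped as the mean of log2(CPM + 1). Without those 5 members MEP-like cells of *Tet2*-KO mice were apart as well (26.6 to 26.97 in 3 mice with vehicle, 27.1 to 39.6 with IL1β). In those cells the median UMIs per cell were also apart, at 2328 to 2410 with vehicle and 3053 to 6090 with IL1β. The part of depth in this was not tested.

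**Figure D4:**
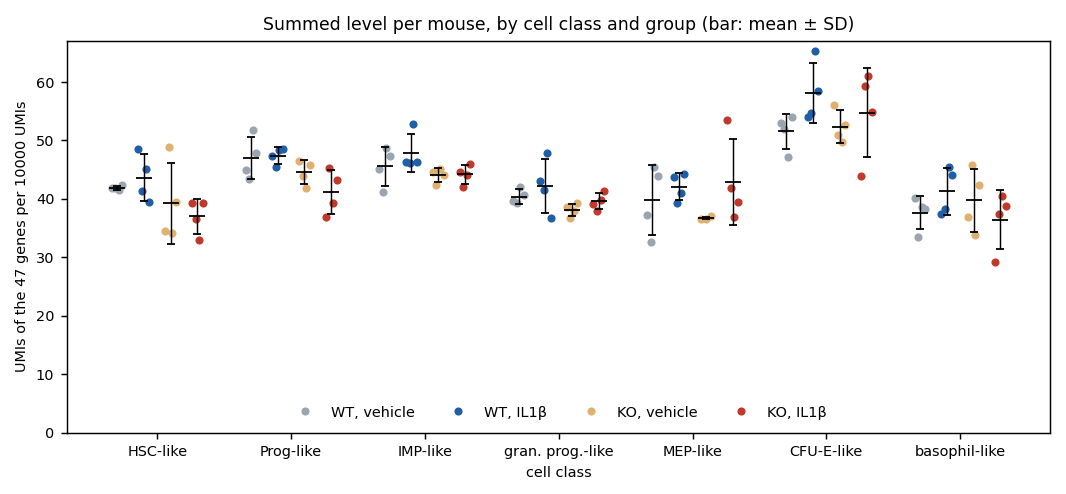
Summed level of the 47 genes (y axis, from 0, UMIs per 10000 UMIs of the class) in each mouse with 10 or more cells of the class (point), in 7 classes (x axis) and 4 groups (colour), with the mean ± SD as a bar. In HSC-like cells the *Tet2*-KO mice with IL1β lie at 32.9 to 39.3, just below the WT mice with IL1β at 39.4 to 48.6.

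**Figure D5:**
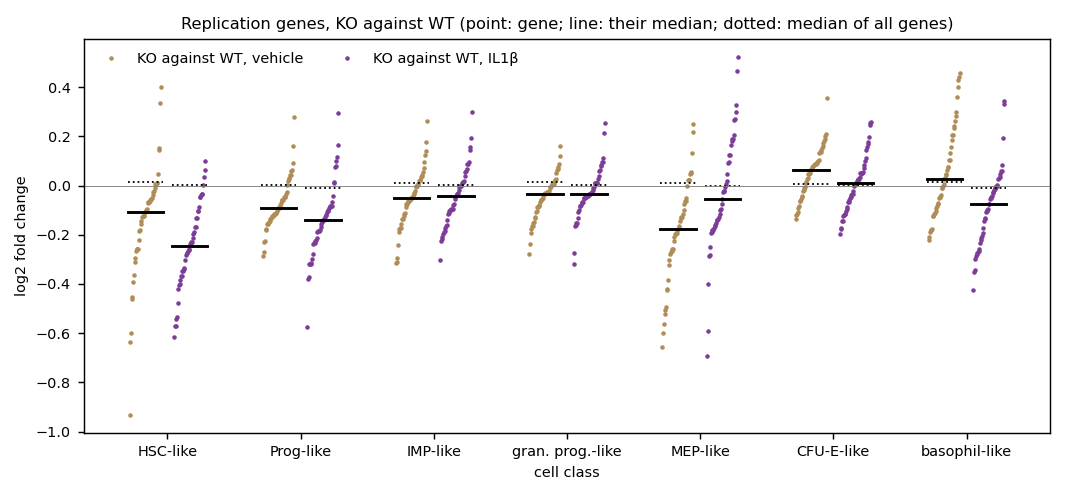
Log2 fold change of *Tet2*-KO against WT (y axis) for each tested member (point, in rising order) in 7 classes (x axis), with vehicle and with IL1β (colour), with the median of the members as a line and that of all genes as a dotted line. In HSC-like cells with IL1β the points centre on -0.25 and 4 of 46 lie above 0, with 0 called by edgeR.

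Single HSC-like cells were compared at a fixed depth. Among cells with at least 3000 UMIs, thinned to 3000, the share with 5 or more member UMIs was 92.8 ± 7.15% in WT with vehicle, 89.1 ± 5.94% in WT with IL1β, 92.0 ± 3.98% in *Tet2*-KO with vehicle and 78.3 ± 5.01% in *Tet2*-KO with IL1β (SD, n = 4 mice each). The last ran from 74.1 to 85.5%, below the 87.4 to 96.0% of *Tet2*-KO mice with vehicle, and overlapped the 82.98 to 94.9% of WT mice with IL1β. These shares rest on 344, 371, 378 and 697 cells, after 380, 370, 906 and 502 shallower ones were left out, and the value of 100% in the second WT mouse with vehicle rests on 4 cells. Thinned to 2000 UMIs, the genotypes with IL1β were apart, at 46.3 to 59.4% in *Tet2*-KO and 68.6 to 81.1% in WT. Between treatments the *Tet2*-KO share with IL1β differed by -7.67 percentage points when thinned to 2000, with overlap, and was 6.48 points higher without thinning. In WT the share was higher with IL1β by 12.96 points when cells were thinned to 2000 UMIs and by 14.43 points without thinning. In Prog-like cells the same share, thinned to 3000 UMIs, was apart between genotypes with IL1β (83.7 to 91.5% in *Tet2*-KO, 94.1 to 96.3% in WT). In IMP-like cells it was apart with vehicle (91.3 to 95.3% in *Tet2*-KO, 95.4 to 97.5% in WT). The other comparisons of genotypes in the 7 tested classes overlapped in this share. The cut at 5 UMIs is a point on a range and not a cell type.

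Member by member, the closest to a call between genotypes was *Rrm1* in IMP-like cells with IL1β (log2 fold change -0.30, adjusted p = 0.182). *Rrm2* in Prog-like cells with IL1β stood at 44.5, 56.2, 51.8 and 67.7 CPM in *Tet2*-KO mice and at 68.8, 80.9, 89.7 and 105 CPM in WT mice (-0.58, SE 0.139, unadjusted p = 0.000365, adjusted p = 0.224). The groups were apart, the fourth *Tet2*-KO mouse by little. In HSC-like cells *Rrm1* differed by -0.41 (adjusted p = 0.523), *Rrm2* by -0.54 (adjusted p = 0.554) and *Rfc4* by -0.57 (adjusted p = 0.523).

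The third comparison asked whether IL1β acted differently in the genotypes. The interaction was called for 0 members in each of the 7 classes, where 0% of all genes were called, in edgeR and in DESeq2. Members with an unadjusted p under 0.05 numbered 2 of 46 in HSC-like cells, 2 of 47 in Prog-like, 1 in IMP-like, 2 in granulocyte progenitor-like, 0 in CFU-E-like and 3 in basophil-like cells, and 3 of 45 in MEP-like cells. The shares of all genes at that threshold were 3.72, 3.43, 3.83, 4.78, 2.62, 5.27 and 3.31% in the same order. A member called in 1 genotype and not in the other, such as *Pole2*, *Pold3* or *Rpa3* above, was thus not shown to differ between them.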

How the data were processed

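The authors deposited UMI counts per gene and barcode, without normalization, for 8 libraries of the 10x Genomics 3′ v3.1 chemistry. The submitters' processing notes name Cell Ranger 3.1.0, Seurat 3.2.3 and mm10, and no column of values was left unused. Groups and mouse numbers came from the labels.

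Barcodes with at least 750 genes and at most 10% mitochondrial UMIs were kept, and hashtags were classified with HTODemux (Seurat 5.3.0). Hashtag doublets and unassigned cells were left out. Cells caught together from 1 mouse carry 1 hashtag and were removed only in an alternative without the 5% of cells with the most UMIs. Cells of WT mice with vehicle were clustered from 30 principal components (2000 variable genes, 20 neighbours, leidenalg 0.10.2, resolution 1.5, chosen after seeing the data because resolution 1 gave no IMP-like cluster), and other cells were projected. The variable genes held no member and no cell cycle, ribosomal, mitochondrial or sex-linked gene. Clusters took the class with the most markers among their 10 leading genes, and among the leading 50 where this tied, as it did for the IMP-like cluster (with monocyte progenitor) and the *Dntt* cluster of Prog (with common lymphoid progenitor).

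Several classes had 3 or more mice with at least 10 cells in every group, and 7 of them were chosen for testing. Erythroblast-like and monocyte progenitor-like cells also met this count and were not tested. UMI counts of the 7 classes were summed per mouse, for mice with at least 10 cells. They were tested with edgeR 4.0.16 (R 4.3.3; filterByExpr, TMM factors, quasi-likelihood test, 4 groups in 1 fit) over all genes, called at a Benjamini-Hochberg adjusted p under 0.05. Libraries with 56010493 to 99197115 UMIs gave a median of 4436 to 7363 UMIs per kept cell. The SE beside each fold change was derived from the fold change and the quasi-likelihood F statistic. The spread in that statistic was estimated over the mice of all 4 groups. P-values measure the spread between mice, each of which shares a library with another mouse of its group. The fit was tested on simulated data. The outcome is not reported here and is not used as support. Shares and intervals cover counting error only.

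The members, their roles and the other lists were chosen with earlier results of these data known, so no list carries a test and no p-value was adjusted over a list. Genes given by name are, for each class and comparison, up to 4 called members per direction, taken by size of fold change where the mice do not overlap, the member of each of the 9 roles with the most UMIs, and up to 3 called genes in each direction of each further list in the granulocyte progenitor-like class. The calls of further lists in HSC-like cells, and *Fen1*, *Rrm2*, *Rfc4* in HSC-like cells and *Ccne1*, *Hells* and *Rpa1* across classes, were chosen after their values were seen.

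Alternatives were RLE factors, DESeq2 1.42.0, no filter on low counts, each mouse left out, the mouse number as a block, pools as replicates, joint clustering, single-cell marker gates, cells of high UMI count left out, other forms of the summed level, other thinning and another motif. Resolution 1, the Prog-like class without its *Dntt* cluster and the fit without the 2 mice with under 1300 assigned cells were added after seeing the data.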

Additional observations from a re-analysis of the deposited data

Results flagged for a closer look

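Single mice stood apart from the other 3 of their group in 8 of the 128 groups examined, by Dixon's test at the 95% level, which flags about 1 in 20 groups by chance. The summed level of the 47 genes in IMP-like cells was 52.8 UMIs per 10000 in the third WT mouse with IL1β, where the others lay at 46.1 to 46.3. *Rrm1* in the same class was 248 CPM in the fourth WT mouse with IL1β, above the 230 to 232 CPM of the others, and *Tipin* was 103 CPM in the second WT mouse with vehicle, below their 128 to 133 CPM.

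In CFU-E-like cells *Cdt1* was 59.1 CPM in the third WT mouse with vehicle, where the others had 93.5 to 96.3 CPM. In Prog-like cells *Cdt1* was 33.2 CPM in the second WT mouse with vehicle (others 73.4 to 78.4 CPM), *Tyms* was 139 CPM in the third (others 133 CPM each), and *Pole2* was 5.68 CPM in the first *Tet2*-KO mouse with IL1β (others 11.2 to 11.5 CPM). In granulocyte progenitor-like cells *Gins2* was 27.3 CPM in the second WT mouse with vehicle, below the 35.2 to 36.8 CPM of the others. The second WT mouse with vehicle, which is low in 3 of these, had 698 assigned cells, the fewest of the 16.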

How the results depend on the processing

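Reversal was checked for the 50 named calls alone, which were picked by size of fold change where mice do not overlap. The other calls were not checked one by one. The named calls kept their sign under every alternative. Of these, 50 passed with RLE factors, 48 with DESeq2, 49 without the filter, 48 with the mouse number as a block, 44 of 50 with joint clustering, 29 of 36 with marker gates and 32 with pools as replicates, where each group has 2 values. Of 24 same-numbered pairs in granulocyte progenitor-like cells, 1 had a correlation above 0.1 (-0.188 to 0.124). With 4 mice per group and 1 class, this cannot decide whether the mouse numbers pair the samples. In IMP-like cells of all 4 groups, growth arrest genes summed higher in mice 1 and 2 than in mice 3 and 4. The order did not hold in HSC-like cells of WT mice with vehicle or in CFU-E-like cells of WT mice. An effect of mouse number was not tested beyond the fit with it as a block. With the replicate block, called members were 2, 9, 11, 14, 2, 8 and 1 in WT and 4, 12, 11, 16, 0, 6 and 4 in *Tet2*-KO (HSC-, Prog-, IMP-, granulocyte progenitor-, MEP-, CFU-E- and basophil-like).

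Counts of members called with IL1β moved by over 1.5 times as follows, and the cause was not tested. In HSC-like cells of WT the 2 calls became 4 without the filter or at resolution 1, 1 with DESeq2, joint clustering or gates and 0 with pools, and in *Tet2*-KO 4 became 1 with joint clustering or gates. Prog-like calls became 5 in WT and 7 in *Tet2*-KO with pools and 19 in *Tet2*-KO with joint clustering. Pools gave 6 in IMP-like WT, 3 and 7 in granulocyte progenitor-like WT and *Tet2*-KO, 0 in MEP-like WT, 1 in CFU-E-like *Tet2*-KO and 0 in basophil-like cells of both. Joint clustering gave 1 in MEP-like cells of each genotype and, like gates, 2 in basophil-like WT. CFU-E-like WT had 6 without the cells of highest UMI count, and basophil-like *Tet2*-KO 2 without the 2 mice with the fewest cells. Between genotypes with IL1β, Prog-like cells had 1 without the filter or with joint clustering. Gates left too few mice in the Prog- and MEP-like classes, and resolution 1 has no IMP-like class.

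Leaving out 1 mouse gave 0 to 3 calls in HSC-, 4 to 12 in Prog-, 9 to 12 in IMP-, 10 to 17 in granulocyte progenitor-, 0 to 2 in MEP-, 4 to 11 in CFU-E- and 0 to 2 in basophil-like cells of WT, and 3 to 5, 5 to 13, 10 to 13, 12 to 18, 0 to 0, 4 to 13 and 1 to 5 in *Tet2*-KO. The third WT mouse with IL1β decided most (granulocyte progenitor-like 11, Prog-like 4, CFU-E-like 4, HSC- and MEP-like 0 without it), then the first WT mouse with vehicle (10 in granulocyte progenitor-like, 7 in Prog-like) and the third (7 in Prog-like, 0 in HSC-like). In *Tet2*-KO, Prog-like calls were 5 without vehicle mouse 4 or IL1β mouse 1, and CFU-E-like calls 13 without vehicle mouse 1. Between genotypes and in the interaction the count was 0 with each mouse left out. The share of HSC-like cells with 5 or more member UMIs differed with IL1β by 12.96 (thinned to 2000) and 14.43 (unthinned) percentage points in WT, by -7.67 and 6.48 in *Tet2*-KO, and between genotypes with IL1β by -22.87 when thinned to 2000. GGCGGGA was in 48.6% of member promoters. The HSC-like cells of a mouse numbered 28 to 505, and the part of cell number and depth in the counts was not tested.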

Other observations

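G2M genes were also read in IMP-, Prog-, CFU-E- and basophil-like cells, as counts of edgeR calls with IL1β. Growth arrest genes are given for IMP- and Prog-like cells, as higher calls alone. MEP-like cells are given for neither list. Of all genes, 9.17% were called higher and 12.1% lower in IMP-like WT cells and 12.7% and 15.1% in *Tet2*-KO, and in Prog-like cells 7.57% and 8.39%, then 9.61% and 11.5%. CFU-E-like cells had 8.1% and 10.3% in WT and 6.71% and 9.81% in *Tet2*-KO, and basophil-like cells 1.61% and 4.05%, then 2.38% and 5.32%. Of the 52 G2M genes, IMP-like cells had 15 higher and 3 lower in WT (median log2 fold change 0.25) and 6 higher and 5 lower in *Tet2*-KO (median 0.00). Prog-like cells had 3 higher and 0 lower in WT and 3 higher and 1 lower in *Tet2*-KO, and CFU-E-like cells 5 higher and 7 lower in WT (median -0.10) and 3 higher and 4 lower in *Tet2*-KO. Basophil-like cells, where 51 were tested, had 1 higher in WT and 10 higher in *Tet2*-KO (medians 0.22 and 0.33), with 0 lower in both. The 9 tested growth arrest genes had 4 higher in IMP-like WT cells, 3 in Prog-like WT cells and 2 in each of the same *Tet2*-KO classes. The differences between genotypes in these counts were not tested.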
